A study of Mus musculus with 20 samples.

Results

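The nuclear receptors and coregulators of the liver were followed after IL-1β, an inflammatory cytokine, in 36 genes taken by symbol from the 37681 genes of the count tables. They are 33 ligand-binding or orphan receptors of the nuclear receptor family and 3 coregulators (Ncor1, Ncoa1 and Ncoa2), chosen with earlier results of these data known but by symbol, with no threshold on a value. Of the 36, 35 had at least 5 reads in at least 5 of 10 libraries in some table and were tested with the 15578 genes that passed this filter. Nr4a3 did not pass and is given by its reads.

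Liver came from 10 wild-type male C57/BL6 mice (C57/B6J of Jackson Labs) aged 12 weeks, 5 injected intraperitoneally with IL-1β at 20 µg/kg (ILB in the mouse names) and 5 with saline (UNT), and was taken 4 h later. RNA of each mouse was sequenced on both Illumina and Ion Torrent as poly-A libraries, and each platform was aligned in 3 ways, so that 6 tables hold counts for the same 10 mice. Values below are from the Illumina table aligned with STAR unless another is named, and the other 5 tables were used as a check.

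A nuclear receptor is a transcription factor whose activity is usually set by a small lipophilic ligand bound in the protein itself. Many act as heterodimers with a retinoid X receptor (RXR) on short DNA repeats near their target genes, where coactivators and corepressors are exchanged when the ligand binds. In hepatocytes these receptors control drug metabolism, bile acid synthesis, fatty acid oxidation and sterol metabolism, and the acute phase response to inflammation is known to lower many of the genes they control.

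Levels are given as scaled CPM, the counts of a gene relative to the TMM-scaled total of its library. The total per library ran from 10568530 to 12008799 counts for Illumina and from 12199528 to 16439683 counts for Ion Torrent. A difference was called at a Benjamini-Hochberg adjusted p below 0.05 from edgeR's quasi-likelihood test over the 15578 genes, and log2 fold changes are IL-1β minus saline with their standard error (SE). The liver identity of the samples showed in albumin, which lay at 49796 to 84438 scaled CPM over the 10 libraries. Calls among markers of cell types are given beside the shares over all genes tested, 22.7% higher and 22.9% lower. No list was tested as a set. All 8 tested neutrophil markers, of 12 listed, were higher with IL-1β. Their summed level was 53.5 to 117 scaled CPM against 2.04 to 6.16. Ly6g, Camp, Mpo and Elane did not pass the filter and were not tested. Cd177, Ngp and Il1r2 had no reads in the saline libraries, and Retnlg and Cxcr2 had at most 0.25 and 0.255 scaled CPM there. In this table these genes could pass the filter only through the IL-1β libraries, a selection that favours a rise. Of the macrophage markers 1 of 11 was higher and 4 lower (470 to 579 against 546 to 792 scaled CPM), of the endothelial markers 2 of 10 higher and 3 lower (168 to 254 against 171 to 276), and of the stellate cell markers 1 of 10 higher and 4 lower (204 to 292 against 282 to 351). In hepatocyte markers 3 of 10 were higher and 4 lower, in cholangiocyte markers 2 of 5 were higher, and in lymphocyte markers 2 of 7 were lower. For every gene below, fewer cells of a type and less RNA per cell cannot be told apart in these bulk samples. The 2 libraries of saline mouse UNT_9584 were less alike than those of the other mice. Their deviations from the mean of their treatment and platform correlated at 0.166 to 0.238, against 0.488 to 0.699 in the other 9 mice. This cannot tell which of the 2 libraries differs. The paper reports that the read counts of this sample correlated less between the platforms than those of the other samples. It also reports that the Ion Torrent read lengths of this sample were shifted. The Illumina STAR library of UNT_9584 held the lowest saline value of 11 members and the highest of 12, against 3 and 8 on Ion Torrent with STAR. Results that rest on this mouse are therefore given without it as well.

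The promoters of the receptor with the largest fall, Nr1i3, and of the one with the largest relative rise, Vdr, are shown. These 2 genes have the lowest and the highest log2 fold change of the members. The rise of Vdr rests on 67 against 2 reads, and Vdr passed the filter only through its IL-1β libraries. The windows run from 250 bases before to 50 bases after the gene start on the strand of the gene, from RefSeq on build GRCm38.p6, at chr1:171213720-171214019 (plus strand) for Nr1i3 and at chr15:97908247-97908546 (minus strand) for Vdr. Capitals mark a match to any of 5 motifs searched on both strands: kappaB by its consensus, AP-1 (TGANTCA), CRE (TGACGTCA), NBRE (AAAGGTCA) and C/EBP (TTGCNNAA).
Nr1i3: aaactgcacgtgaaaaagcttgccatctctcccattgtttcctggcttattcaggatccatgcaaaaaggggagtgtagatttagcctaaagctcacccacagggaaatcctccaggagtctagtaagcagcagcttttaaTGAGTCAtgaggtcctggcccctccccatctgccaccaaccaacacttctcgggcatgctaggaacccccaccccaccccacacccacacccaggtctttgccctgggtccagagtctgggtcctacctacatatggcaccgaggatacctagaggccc
Vdr: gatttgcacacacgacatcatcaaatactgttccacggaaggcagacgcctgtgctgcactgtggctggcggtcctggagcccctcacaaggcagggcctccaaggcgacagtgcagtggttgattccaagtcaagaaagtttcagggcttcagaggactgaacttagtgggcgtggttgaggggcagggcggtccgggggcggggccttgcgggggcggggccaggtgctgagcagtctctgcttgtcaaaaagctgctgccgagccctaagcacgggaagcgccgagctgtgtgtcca
The capitals in the Nr1i3 window are an AP-1 motif that starts 109 bases before the gene start, at position -109, and no 2 motifs overlap in it. An AP-1 motif stands in 7.81% of the 32851 promoter windows of this length, a kappaB motif in 4.51%, a CRE in 1.79%, an NBRE in 1.51% and a C/EBP motif in 10.8%. None of these letters were found in the Vdr window. Windows existed for 33 of the 36 members, and the motifs were present in 2 of them for AP-1 (Nr1i3, Esrrg), 2 for kappaB (Rara, Nr4a1), 1 for CRE (Nr6a1), 2 for NBRE (Rxra, Rxrg) and 11 for C/EBP. A member was counted if any of its windows held the motif, while the shares over all windows are per window. The counts and the shares are thus in unlike units and are not compared. These matches are letters in a window and say nothing of binding.

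In the Illumina STAR data 17 of the 35 tested members were lower with IL-1β and 3 were higher. Over all genes tested, 22.9% were lower and 22.7% were higher, so the members were called lower more often than genes in general and higher less often, although no test of that difference was made. Their median log2 fold change was -0.41, against 0.00 over all genes. Without TMM scaling the median over all genes shifts to -0.10 and the all-gene calls to 2746 higher and 4335 lower in place of 3541 and 3575, while the members count 18 lower and 3 higher. The rank-sum test on unscaled counts gave 2154 higher and 3823 lower over all genes, and 2 higher and 12 lower members. Without the Illumina library of mouse UNT_9584 it was 15 members lower and 3 higher. The same 17 and 3 members were called in the same direction in all 6 tables, where 17.6% of all genes were called lower and 17.3% higher throughout. With a log2 fold change beyond 1 in size required as well, 7 members remained lower and 1 higher, against 8.88% and 8.02% of all genes. The 5 IL-1β values lay below all 5 saline values for 9 members (16.2% of all genes) and above them for 3 (17.6% of all genes). Each of these counts of higher members includes Vdr, which passed the filter only through its IL-1β libraries.

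**Figure D1:**
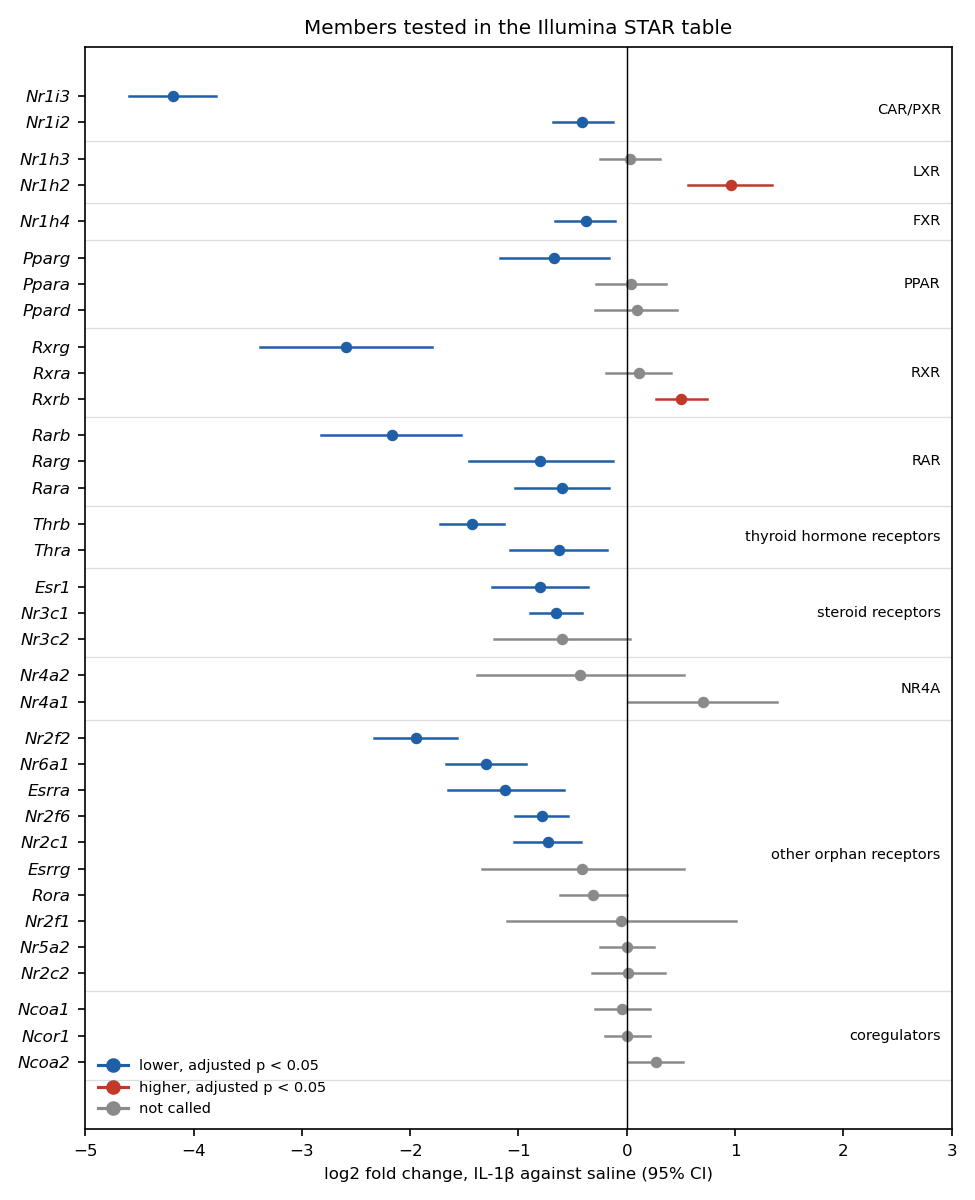
Log2 fold change of 34 members, IL-1β against saline in the Illumina STAR table, with 95% confidence intervals from edgeR (5 libraries a group) and colours for the call. Nr1i3 stands at -4.19 and the other lower members lie between -0.38 and -2.59, Nr1h2 and Rxrb are the 2 plotted members called higher, and Vdr, with reads in 1 saline library, is not plotted.

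The largest fall among the members was that of Nr1i3, which encodes CAR, the constitutive androstane receptor that induces drug-metabolising enzymes. Its scaled CPM was 32.3, 18.7, 21.2, 22.9 and 31.3 in the IL-1β mice and 557, 481, 412, 287 and 577 in the saline mice. No value of one group came near the other, and the saline mean was 18.3 times the IL-1β mean. The log2 fold change was -4.19 (SE 0.19, adjusted p = 1.94e-09). On Ion Torrent with STAR the values were 11.2 to 23.5 against 183 to 338 scaled CPM, and over the 6 tables the log2 fold change ran from -4.21 to -3.84. Nr1i3 lies on chromosome 1 from 173144101 to 173150832 (mm9, plus strand), and 51.4% of its merged exon bases are also exon of Tomm40l on the opposite strand. Tomm40l itself averaged 135 reads with IL-1β and 136 with saline (log2 fold change 0.16, adjusted p = 0.288), beside 190 to 341 reads of Nr1i3 with IL-1β and 3235 to 6691 with saline. How reads in the shared bases were assigned is not given in the sources used here.

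Nr1i2 encodes PXR, the pregnane X receptor, which shares drug-metabolism targets with CAR, and it fell far less. Its scaled CPM was 55.2, 55.3, 61.8, 77.0 and 87.3 with IL-1β and 82.7, 88.3, 82.0, 98.9 and 94.1 with saline. The groups overlapped in Illumina through the highest IL-1β mouse. The log2 fold change was -0.41 (SE 0.13, adjusted p = 0.0179), and in 3 of the 6 tables the groups did not overlap. Per kb of exon, Nr1i3 stood at 1.68 to 3.89 of the Nr1i2 level with saline and at 0.172 to 0.339 with IL-1β.

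The bile acid receptor FXR, encoded by Nr1h4, restrains bile acid synthesis in the liver. Nr1h4 had 127, 110, 151, 116 and 134 scaled CPM with IL-1β and 170, 155, 180, 123 and 203 with saline. One saline value, 123, lay among the IL-1β values. The fall, a log2 fold change of -0.38 (SE 0.13, adjusted p = 0.0252), was the smallest of the 17 and lost its call without saline mouse UNT_9584 (-0.30, adjusted p = 0.0633), and also without IL-1β mouse ILB_9578 or ILB_9582 or saline mouse UNT_9576.

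The oxysterol receptors LXRα and LXRβ, which sense cholesterol and switch on its export and fatty acid synthesis, differed from each other. Nr1h2, the gene of LXRβ, had 40.4, 24.9, 32.3, 33.7 and 43.1 scaled CPM with IL-1β and 19.1, 16.8, 20.0, 22.9 and 11.0 with saline. Every IL-1β value exceeded every saline value, and the log2 fold change was 0.96 (SE 0.18, adjusted p = 0.000515). The lowest saline value was that of mouse UNT_9584, and without it the log2 fold change was 0.83 (adjusted p = 0.000617). Nr1h3, the gene of LXRα and the more abundant of the pair per exon length, lay at 62.3 to 91.3 scaled CPM with IL-1β and at 56.3 to 87.5 with saline (log2 fold change 0.03, 95% interval -0.25 to 0.31, adjusted p = 0.899). Per kb of exon, Nr1h2 stood at 0.255 to 0.387 of the Nr1h3 level in the IL-1β mice and at 0.145 to 0.214 in the saline mice, with no overlap.

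Fatty acids and their derivatives activate the PPARs. Ppara, the gene of the PPAR that drives hepatic fatty acid oxidation, had 120, 128, 87.5, 149 and 124 scaled CPM with IL-1β and 140, 106, 100, 97.5 and 148 with saline. The groups covered the same range, with a log2 fold change of 0.04 (95% interval -0.28 to 0.36, adjusted p = 0.876). Pparg, whose product promotes fat storage, ran from 4.03 to 8.82 with IL-1β and from 5.62 to 13.6 with saline. Its fall (log2 fold change -0.67, adjusted p = 0.0307) lost its call without any of 5 of the mice, UNT_9584 among them (-0.65, adjusted p = 0.0533). The call was also lost by the rank-sum test and by limma-voom. For Ppard, which is expressed in many tissues, the ranges were 5.22 to 8.05 and 4.18 to 7.49 scaled CPM (adjusted p = 0.749).

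The RXRs, the common partners of these receptors, moved in different ways. Rxra, by far the most abundant of them in liver, had 532, 443, 367, 470 and 529 scaled CPM with IL-1β and 512, 462, 480, 410 and 305 with saline. The groups overlapped, and the log2 fold change was 0.11 (95% interval -0.19 to 0.41, adjusted p = 0.579), or 0.01 without saline mouse UNT_9584, the lowest. Rxrb was higher, at 39.9, 32.5, 36.4, 35.6 and 38.7 against 24.2, 26.6, 24.5, 31.9 and 22.2 scaled CPM. Its groups were apart by a small margin, 32.5 against 31.9, and the log2 fold change was 0.50 (SE 0.11, adjusted p = 0.00171). In the other 5 tables the groups of Rxrb overlapped, and the rank-sum test did not call it.

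Rxrg, the rarest of the RXR genes in these livers, was lower. It had 9, 5, 5, 4 and 6 reads with IL-1β and 34, 62, 57, 24 and 25 reads with saline. All saline libraries held more reads than any IL-1β library. The log2 fold change was -2.59 (SE 0.37, adjusted p = 2.06e-05), and it ran from -2.98 to -2.52 over the 6 tables. The gene lies on chromosome 1 from 169528515 to 169569754 (mm9, plus strand).

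The 3 retinoic acid receptors were all lower. Rarb, which is itself a known retinoic acid target, had 0.853, 1.18, 1.19, 1.39 and 0.302 scaled CPM with IL-1β and 3.16, 5.70, 4.63, 5.15 and 3.72 with saline. The groups were clearly apart, at a log2 fold change of -2.17 (SE 0.30, adjusted p = 2.22e-05). Rara had 5.82 to 12.8 against 9.38 to 15.4 scaled CPM (log2 fold change -0.60, adjusted p = 0.0269) and Rarg 1.59 to 2.86 against 1.49 to 6.78 (-0.80, adjusted p = 0.0465). The groups of both overlapped only through mouse UNT_9584, whose saline value was the lowest; without it the log2 fold changes were -0.70 (adjusted p = 0.0108) and -1.01 (adjusted p = 0.00246). Rarg lost its call without any 1 of the other 9 mice, and by the rank-sum test and limma-voom. Rara lost its call without ILB_9578, ILB_9579, ILB_9582, UNT_9575 or UNT_9580, and by the rank-sum test. Stellate cells store most of the retinoids of the liver. Of 10 stellate cell markers 4 were lower, among them Lrat and Colec11, 1 (Ngfr) was higher and 5 were not called. Over all genes 22.9% were lower, and Lrat also stands in the list of retinoic acid receptor targets. The part of stellate cells in the fall of Rarb was not tested.

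Both thyroid hormone receptors were lower, and the one that dominates in liver fell more. Thrb had 17.8, 24.9, 15.2, 19.2 and 19.4 scaled CPM with IL-1β and 50.8, 51.9, 41.9, 51.4 and 64.1 with saline. All IL-1β values were below 25, and the log2 fold change was -1.43 (SE 0.14, adjusted p = 1.1e-06). Thra had 3.45 to 6.73 against 5.85 to 10.1 scaled CPM, with a log2 fold change of -0.63 (SE 0.21, adjusted p = 0.0236). That call was lost without IL-1β mouse ILB_9578 or ILB_9583 or saline mouse UNT_9576, and by the rank-sum test. Nr1d1, whose exons overlap 5.7% of those of Thra on the opposite strand, was not called (-0.24, adjusted p = 0.659).

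Vdr, the gene of the vitamin D receptor, is nearly silent in hepatocytes and was detected mainly in the treated mice. It had 6, 28, 12, 10 and 11 reads with IL-1β and 0, 0, 0, 0 and 2 with saline, so that all but 1 saline library held none. Vdr thus passed the filter of 5 reads in 5 libraries only through the IL-1β libraries. Such a selection favours a rise, and the interval and p-value below do not allow for it. The summed reads, 67 against 2, gave a ratio of 37.9 after scaling, with an exact 95% interval of 10.1 to 319 that covers counting error only (edgeR adjusted p = 8.42e-05). In the other 5 tables the saline reads summed to between 3 and 5, in up to 3 of the 5 libraries, and the ratio was between 13.4 and 27.8. Vdr lies on chromosome 15 from 97684856 to 97741061 (mm9, minus strand). Mouse ILB_9578 held 28 of the 67 reads, and the call was kept when it was left out. The 8 tested neutrophil markers summed to 53.5 to 117 scaled CPM with IL-1β and to 2.04 to 6.16 with saline. Some of them, like Vdr, could pass the filter in this table only through the IL-1β libraries. Of 11 macrophage markers 1, Marco, was higher and 4 were lower. The part of these cells in the Vdr reads was not tested.

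Among steroid receptors, Nr3c1, the gene of the glucocorticoid receptor, had 53.7, 62.1, 61.7, 67.7 and 46.3 scaled CPM with IL-1β and 97.0, 76.3, 97.1, 95.5 and 93.0 with saline. The groups did not overlap here or in 4 of the other 5 tables, and the log2 fold change was -0.65 (SE 0.11, adjusted p = 0.000231). Esr1, the oestrogen receptor gene, was lower as well (-0.80, SE 0.21, adjusted p = 0.00546), with values of 16.1 to 21.4 against 17.9 to 50.5. Nr3c2, the gene of the mineralocorticoid receptor, spread from 5.62 to 18.5 with IL-1β and from 11.1 to 20.6 with saline and was not called (-0.60, adjusted p = 0.112), though it was without ILB_9579, the highest IL-1β value (-0.98).

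The NR4A genes, immediate early genes that need no known ligand, were close to the limit of detection at 4 h. Nr4a1 had 14, 10, 8, 10 and 13 reads with IL-1β and 8, 5, 7, 13 and 5 with saline. The ranges overlapped, and the log2 fold change of 0.70 (95% interval 0.01 to 1.39) was not called (adjusted p = 0.0861), though it was without saline mouse UNT_9580 (0.99) and by limma-voom (0.74). Nr4a2 had 4, 2, 4, 7 and 2 against 3, 8, 4, 6 and 8 reads and was called in 1 of the 6 tables, lower (Ion Torrent GSNAP, -1.14). Nr4a3 summed to 12 reads with IL-1β and 5 with saline. At this depth no change of these genes was detectable in all tables.

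Orphan receptors, for which no physiological ligand is settled, made up 10 of the members, of which 5 were lower and 5 were not called. Nr2f2 (COUP-TFII), a receptor known from veins and mesenchyme as well as liver, fell most, from 21.4, 23.7, 16.2, 20.3 and 29.2 scaled CPM with saline to 6.92, 5.62, 4.27, 4.76 and 7.05 with IL-1β. The lowest saline value was more than 2 times the highest IL-1β value, and the log2 fold change was -1.95 (SE 0.18, adjusted p = 6.3e-07). Of the endothelial markers Kdr, Tek and Clec4g were lower and Cdh5 and Lyve1 higher; whether this bears on Nr2f2 was not tested.

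Nr6a1, known as the germ cell nuclear factor, had 5.21, 4.93, 9.43, 6.05 and 7.25 scaled CPM with IL-1β and 15.3, 13.1, 17.1, 16.4 and 18.9 with saline. The groups were apart, at a log2 fold change of -1.30 (SE 0.17, adjusted p = 2.45e-05). Nr2f6 (EAR2) had 20.1, 16.5, 16.8, 16.7 and 22.1 against 28.9, 32.8, 35.3, 32.9 and 28.9 scaled CPM. Its log2 fold change was -0.78 (SE 0.11, adjusted p = 4.83e-05). The exons of Nr2f6 are shared to 54.4% with Ocel1 on the opposite strand, which was also lower (-0.69, adjusted p = 0.0178) but averaged 53.8 reads with saline, against 311 to 411 reads for Nr2f6. Nr2c1 (TR2) had 9.67, 11.4, 11.3, 13.5 and 10.8 against 16.1, 14.8, 17.4, 22.8 and 22.8 scaled CPM, also without overlap (-0.73, SE 0.15, adjusted p = 0.000849).

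Esrra, the gene of ERRα, which works with PGC-1 coactivators on mitochondrial genes, had 12.4, 6.8, 7.64, 8.23 and 9.86 scaled CPM with IL-1β and 17.3, 22.8, 28.2, 20.3 and 8.73 with saline. Mouse UNT_9584 alone among the saline mice lay within the IL-1β range. On Ion Torrent the same mouse had 38.1 scaled CPM, within the 26.4 to 41.5 of the other saline mice. The log2 fold change was -1.12 (SE 0.25, adjusted p = 0.00196), and -1.30 without that mouse. The rank-sum test did not call Esrra.

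The other orphan receptors were not called. Nr5a2 (LRH-1), a regulator of bile acid synthesis, had a log2 fold change of 0.00 (95% interval -0.25 to 0.25), Nr2c2 0.01 (-0.32 to 0.35) and Rora -0.31 (-0.62 to 0.00), the last called without UNT_9575 (-0.39) and without scaling (-0.43). Of the Nr2c2 exon bases 38.6% are also exon of Mrps25 on the opposite strand, which was not called (-0.18, adjusted p = 0.246). With saline Nr2c2 had 28.3 to 50.2 scaled CPM on Illumina and 3.93 to 11.1 on Ion Torrent with STAR. Esrrg and Nr2f1 had at most 30 and 12 reads in any Illumina STAR library, and their intervals, -1.34 to 0.53 and -1.11 to 1.01, reach past a log2 fold change of 1 in size.

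The 3 coregulators among the members did not pass the test. Ncor1, a corepressor that carries histone deacetylase to unliganded receptors, had 101 to 118 scaled CPM with IL-1β and 94.4 to 118 with saline (log2 fold change 0.00, 95% interval -0.20 to 0.21). Ncoa1 and Ncoa2, coactivators of the p160 family, had log2 fold changes of -0.04 (-0.29 to 0.21) and 0.27 (0.01 to 0.52, adjusted p = 0.0865).

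**Figure D2:**
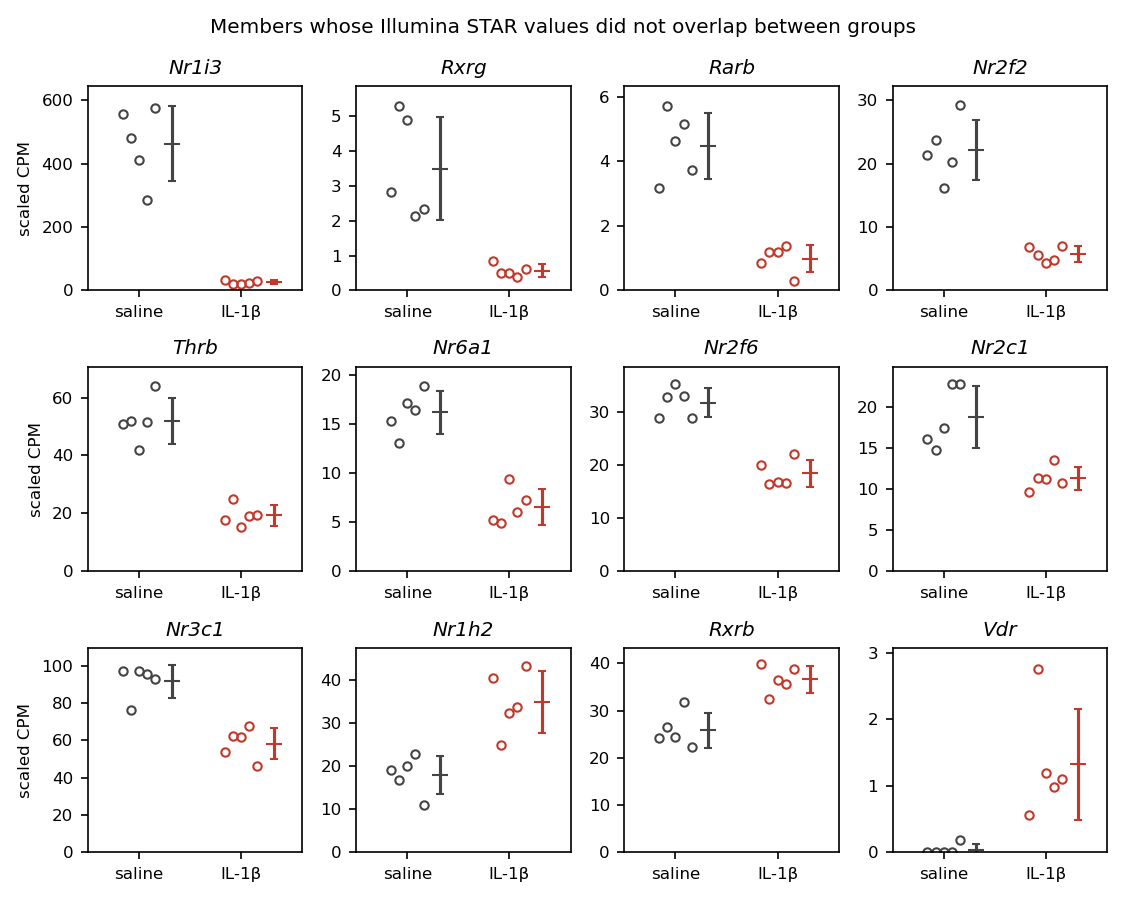
Scaled CPM in the Illumina STAR table for the 12 members whose groups did not overlap, 1 circle a mouse, with bars for mean ± SD (n = 5 a group) and each axis starting at 0. For 9 of them the IL-1β circles lie below all saline circles, and for Nr1h2, Rxrb and Vdr above.

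Levels per kb of merged exon place the members beside each other. In saline mice Nr1i3 ranked first of the 35 with a mean of 105 scaled CPM per kb (SD 26.7, n = 5), before Rxra at 79.4 (SD 14.8) and Nr1h4 at 72.3 (SD 12.9), whose ranges overlap. In IL-1β mice Nr1i3 ranked 12th at 5.73 (SD 1.39), and Rxra came first at 85.7 (SD 12.5). On Ion Torrent with STAR, Rxra came first in saline mice as well, at 102 (SD 10.6), and Nr1i3 ranked 3 at 64.2 (SD 13.8), so the first rank of Nr1i3 holds for the Illumina table alone of these 2 (a comparison chosen after the data were examined). The summed level of the members was 474 (SD 35.2) with saline and 333 (SD 23.5) with IL-1β, and Nr1i3 gave 15.5 to 26.6% of it with saline and 1.37 to 2.13% with IL-1β. Left out, it took the sums to 354 to 388 with saline and 301 to 354 with IL-1β. Relative to its partner Rxra, the level of Nr1i3 was 0.868 to 2.34 in the saline mice and 0.0523 to 0.0752 in the IL-1β mice. The highest saline ratio was that of UNT_9584, and without it the highest was 1.35. On Ion Torrent the ratio was 0.487 to 0.766 with saline and 0.0347 to 0.0677 with IL-1β.

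**Figure D3:**
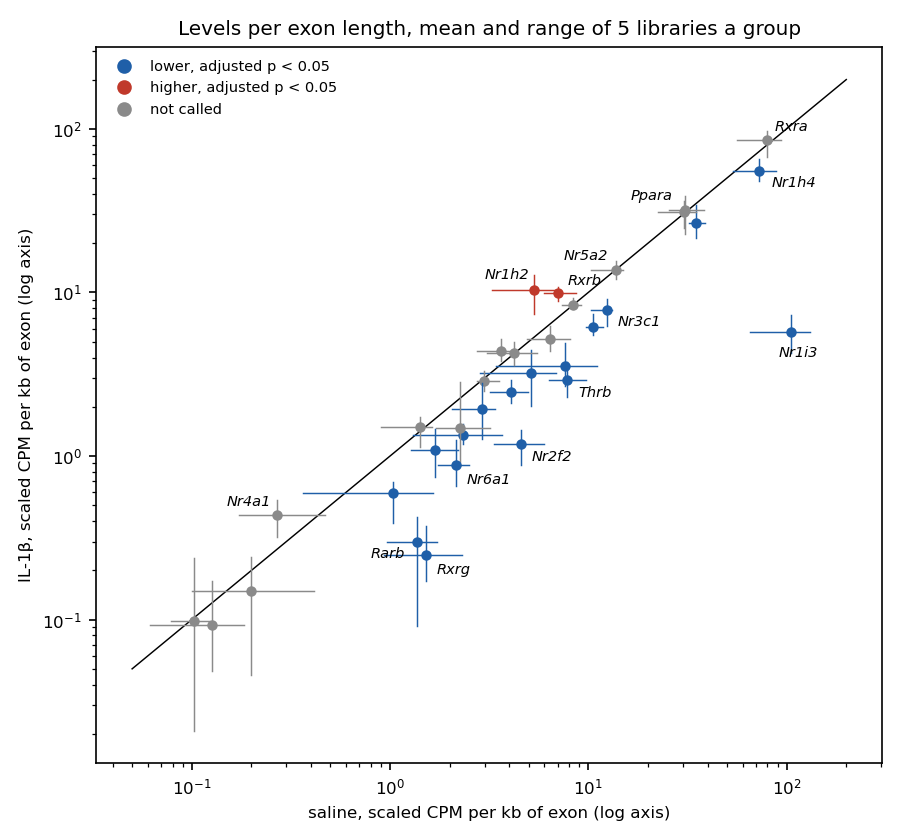
Mean level of 34 members in scaled CPM per kb of exon with saline (horizontal, log axis) and with IL-1β (vertical, log axis), with lines for the range over the 5 libraries of each group and a diagonal for equal levels. Nr1i3, at 105 with saline and 5.73 with IL-1β, lies far below the diagonal, Rxra and Ppara lie close to it, and Vdr is not plotted.

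The receptors and coregulators outside the 36 members were read from lists set for this purpose. Counts of the main fit in these lists, and in the target and control lists below, stand beside the shares over all genes tested. Those shares were 22.9% lower and 22.7% higher. Of 8 other nuclear receptors tested, 3 were lower and 1 was higher. Hnf4a, the orphan receptor that maintains hepatocyte identity, rose from 642 to 722 scaled CPM with saline to 1295 to 1536 with IL-1β (log2 fold change 1.05, SE 0.09, adjusted p = 3.94e-07). Among the lower was Nr1h5, an FXR-like receptor gene (log2 fold change -3.67, SE 0.44, adjusted p = 1.34e-06), with at most 0.604 scaled CPM with IL-1β and at most 5.02 with saline. Nr0b2, the gene of the FXR-induced repressor SHP, had 1.77 to 9.82 against 6.31 to 26.9 scaled CPM (-0.96, adjusted p = 0.0719), and the clock receptor Nr1d1 18.9 to 68.8 against 19.1 to 86.4.

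Of 26 other coregulators 13 were higher and 5 lower. Without scaling the split was 9 and 8, and by the rank-sum test 8 and 8, so the balance of this list depends on the scaling. Highest of those called was Pprc1 (log2 fold change 1.70, SE 0.17, adjusted p = 1.6e-06), a PGC-1-related coactivator, followed by Lpin1 at 1.34, with mean levels of 61.0 against 18.7 and 811 against 319 scaled CPM. The PGC-1 coactivators themselves, partners of ERRα and PPARα, were lower, Ppargc1b at -2.48 (adjusted p = 0.000353) and Ppargc1a at -1.23 (adjusted p = 0.00643), with Cited2 between them at -1.60. Nrip1 (-0.33) and Ncoa3 (-0.18) were not called.

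Lists of genes known to be controlled by the members held 140 distinct tested genes, of which 62 were lower and 29 higher. Over all genes tested 22.9% were lower and 22.7% higher, so the share higher was close to that of genes in general. No test of either share was made, and 5 genes stood in more than 1 list. The lists were put together from general knowledge, so a gene in one need not depend on that receptor in these livers. Of 24 tested CAR and PXR targets, 15 were lower and 3 higher (median log2 fold change -0.63, against 0.00 over all genes). The drug and bile salt carriers Slco1a4 and Abcc2 were lower at -1.63 and -1.29, and Cyp2a5, a cytochrome P450, at -1.43. Cyp2b10, the classical CAR target, went the other way, from 9.40 to 31 scaled CPM with saline to 55.6 to 124 with IL-1β (log2 fold change 2.03, SE 0.29, adjusted p = 5.81e-05), and so did Gadd45b (2.18), which cytokines are also known to induce.

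Of 37 PPARA targets 18 were lower and 3 higher, while Ppara itself was not called. Acot4 (-2.64) and Acsl1 (-2.20), enzymes of fatty acyl-CoA metabolism, fell most. Acsl1 went from 1209 to 1653 scaled CPM with saline to 222 to 389 with IL-1β. Cpt1a and Acadm, central enzymes of fatty acid oxidation, had log2 fold changes of -0.13 and 0.09 and were not called. Without saline mouse UNT_9584 the count was 17 lower and 7 higher, and by the rank-sum test 18 and 0. Of the genes called higher, Slc22a5 had 43.4 to 86.0 against 27.9 to 67 scaled CPM.

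Among the 18 tested FXR and LRH-1 targets 10 were lower and 2 higher. The list mixes genes that FXR induces, such as Nr0b2, with genes that it represses, so these counts have no single reading as a target response. Cyp7a1, the rate-limiting enzyme of bile acid synthesis, which FXR represses, had 0.394 to 22.9 scaled CPM with IL-1β and 75.4 to 297 with saline (log2 fold change -4.72, SE 0.55, adjusted p = 1.5e-05). Klb, the FGF coreceptor, fell by 3.26 on the log2 scale. Scarb1, the HDL receptor, was higher at 0.69.

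Of 20 LXR targets 8 were lower and 2 higher. Abca1, the cholesterol exporter, rose to 476 to 1009 scaled CPM with IL-1β from 207 to 269 (log2 fold change 1.69, adjusted p = 2.54e-06). Abcg8, a sterol exporter of the bile canaliculus, fell by 1.81 on the log2 scale. Srebf1, a regulator of fatty acid synthesis, fell by 2.23. Thyroid hormone receptor targets were lower in 6 of 13 and higher in 1, Tbl1xr1 (0.97), with Dio1, a deiodinase and a standard target, at -0.70 (adjusted p = 0.000454). Retinoic acid receptor targets, a list that includes the member Rarb, were lower in 5 of 10 and higher in 2. Cyp26a1, which degrades retinoic acid, stood at -2.44 and Tgm2, a transglutaminase, at 3.12.

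The glucocorticoid receptor targets moved the other way from their receptor gene, with 17 of 24 higher and 3 lower (median log2 fold change 1.27), or 12 and 3 by the rank-sum test. The largest rises were those of Lcn2 (9.90), Mt2 (7.10) and Mt1 (6.29), acute phase genes that cytokines are also known to induce. Fkbp5, a standard glucocorticoid target, had 160 to 292 against 97.7 to 134 scaled CPM (0.97, adjusted p = 6.8e-05), while Tsc22d3, another, was not called (-0.65, adjusted p = 0.0867). The gluconeogenic gene G6pc was lower at -2.99 and the clock gene Per2 at -1.60. Of the kappaB-regulated genes listed as a control of the treatment, 10 of 10 were higher, with a median log2 fold change of 2.5. By the rank-sum test 6 were higher, and 9 were higher in all 6 tables. This list was chosen with earlier results of these data known, so it is no independent check.

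**Figure D4:**
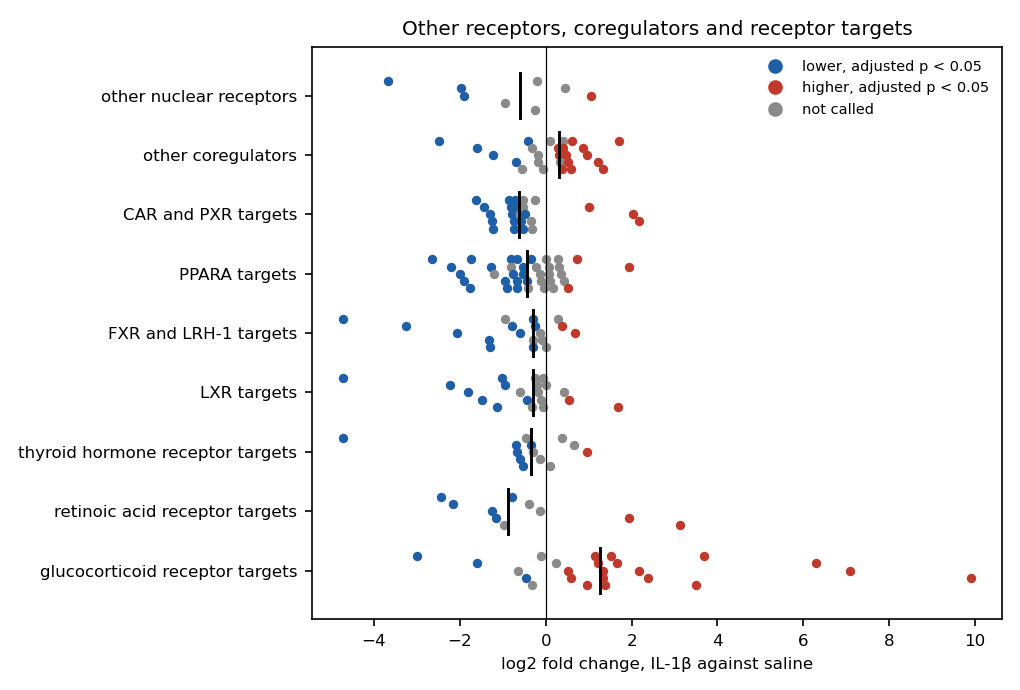
Log2 fold change (IL-1β against saline, Illumina STAR) of each tested gene of 9 lists, 1 point a gene, coloured by call, with a black bar at the median of the list. Medians lie below 0 for 7 lists and above 0 for the other coregulators and the glucocorticoid receptor targets, whose 3 rightmost points are Lcn2, Mt2 and Mt1.

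A platform-by-treatment term was fitted in edgeR to both libraries of each mouse (20 per aligner), blocked on mouse, and 0 of the 35 members were called with STAR, GSNAP or STAR followed by Bowtie2, nor were any with STAR by limma-voom or DESeq2. Over all genes 0.00642%, 0.0642% and 0.077% were called. Unadjusted p fell below 0.05 for 4 members with STAR, Nr1i3, Rxra, Rara and Nr1i2, beside 7% of all genes, for 3 with GSNAP and for 6 with STAR followed by Bowtie2. The fall of Nr1i3 was smaller on Ion Torrent by 0.35 on the log2 scale (SE 0.11, adjusted p = 0.653), and the differences of Rxra (-0.25), Rara (-0.37) and Nr1i2 (-0.18) went the other way. The median difference in size over the members was 0.15. Without mouse UNT_9584 the term was called for 10 genes in place of 1 with STAR, no member among them.

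**Figure D5:**
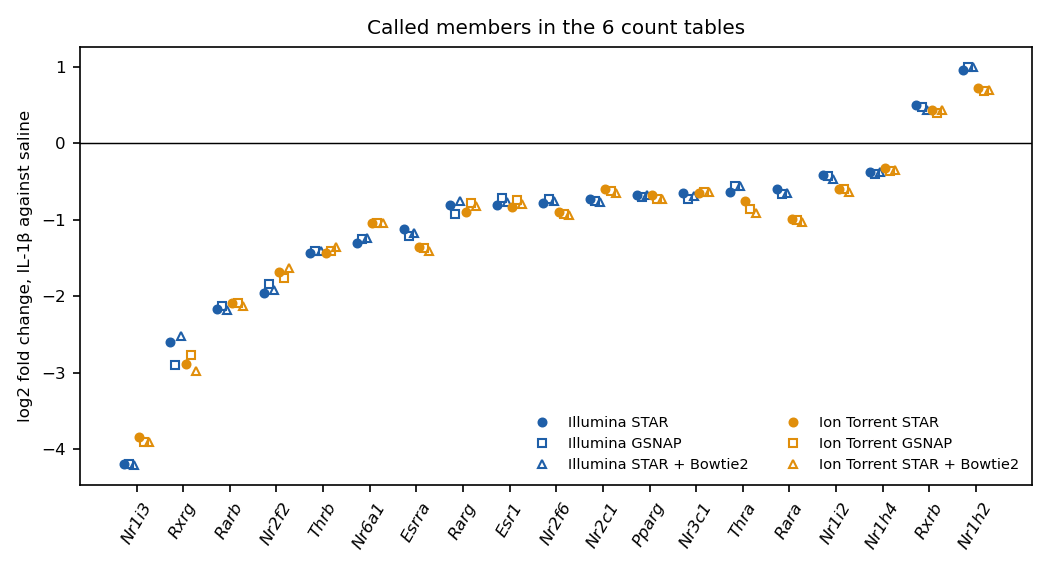
Log2 fold change (IL-1β against saline) in each of the 6 tables for 19 of the 20 called members, with blue for Illumina, orange for Ion Torrent and 1 symbol an aligner. All 6 symbols of a member lie on the same side of 0, with Nr1i3 lowest and Nr1h2 highest, and Vdr is not plotted.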

How the data were processed

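RNA of 10 mouse livers, 5 per treatment, was measured on 2 platforms, and the 6 count tables deposited by the authors give whole-number counts per gene. Per the paper's methods and the labels, the authors aligned reads to mm9 with STAR 2.5.1b, GSNAP or STAR followed by Bowtie2 2.2.9, and with PORT removed rRNA and mitochondrial reads, drew reads at random so that every library of a table matched its smallest one, and counted Ensembl genes. The deposited gene counts still summed to less with IL-1β than with saline, 10568530 to 10655860 against 10887640 to 11046256 in the Illumina STAR table. Counting by strand, and whether pairs or reads were counted, is not given in the sources used here. Re-sampling limits precision to that of the smallest library, and a count of 0 over a group allows up to 3 reads.

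The members and lists were chosen with earlier results of these data known. Genes with at least 5 reads in at least 5 libraries of any table (15578) were tested in each table with edgeR 4.0.16 (TMM, quasi-likelihood, Benjamini-Hochberg). Each table was fitted on its own. The platform-by-treatment term was fitted with the mouse as a block, since both libraries of a mouse come from the same animal, and deviations of paired libraries correlated at 0.166 to 0.699. Alternatives were the rank-sum test, limma-voom 3.58.1, DESeq2 1.42.0, RLE or no scaling, other filters, each mouse left out and, added after the data were examined, the lists without saline mouse UNT_9584. On simulated Illumina counts for the 15578 genes, with 200 genes changed by 1.5 on the log2 scale, edgeR called 200 of them and 12 unchanged genes, limma-voom 198 and 20, DESeq2 200 and 27, and the rank-sum test 0 and 0. The changed genes were drawn from those with a mean of at least 20 reads on both platforms, so these calls do not cover members with fewer reads. All genes were simulated with the same dispersion. The simulation changed only 200 genes, while edgeR called 3541 higher and 3575 lower in the data. With the data the rank-sum test called 2154 higher and 3823 lower, so its 0 in the simulation does not measure its power there. For the platform-by-treatment term the 2 libraries of a mouse were simulated independently, so the block on mouse was not checked. For this term edgeR called 199 and 9, limma 156 and 12 and DESeq2 194 and 16. These counts hold for the simulated settings alone, and their match to the spread between the mice was not tested. Gene coordinates and merged exon lengths are from GENCODE on mm9, which may differ from the gene models the authors used. Values per library were given for members called in all 6 tables whose groups did not overlap (12) and for detected NR4A, CAR, PXR, FXR, PPARA, RXRA and NR3C1 genes, and of each other list up to 4 genes were named, the largest called rises and falls at a mean count of at least 20, plus Nr0b2, Hnf4a, Nr1d1, Ppargc1a, Nrip1 and Ncoa3. Some genes of these lists are not reported here. Esrra per library and further genes of the lists were named after their values were seen. Of the listed symbols, 4 had no match in the tables. P-values measure the spread between these mice.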

Additional observations from a re-analysis of the deposited data

Results flagged for a closer look

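In 70 groups of 5 libraries, 2 for each tested member, 7 values stood far from the rest of their group, where chance flags about 1 in 20. Among saline mice, Ppard in mouse UNT_9584 was low at 4.18 scaled CPM beside 6.64 to 7.49 in the others, Nr3c1 in mouse UNT_9575 was low at 76.3 beside 93.0 to 97.1, and Nr5a2 in mouse UNT_9576 was low at 39.6 beside 53.4 to 57.4. High saline values were Esrrg in mouse UNT_9576, at 2.57 beside 0.622 to 1.11, Ncoa1 in mouse UNT_9574, at 25.9 beside 20.1 to 21.3, and Vdr in mouse UNT_9584, at 0.186 where the others had no reads. With IL-1β, Vdr in mouse ILB_9578 was high at 2.76 beside 0.569 to 1.19.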

How the results depend on the processing

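Over 440 alternative fits of the 20 called members, the direction was kept in 440 and the call in 406, and 13 members kept it in every one. The 34 lost calls were those of Esrra, Rxrb, Nr1h4, Pparg, Rara, Rarg and Thra. With a log2 fold change beyond 1 in size, 1 member was called higher and 7 lower. Members called in all 6 tables numbered 11 by the rank-sum test. Leaving out 1 mouse gave 3 to 4 members higher and 12 to 16 lower, 15 to 19 in all 6 tables, and 0 that differed between platforms. Without the replicate block the platform comparison also called 0 members, and the pairing changed no call. Sizes near 0 changed sign for members that were not called. Nr1h3 (0.03) became -0.15 by the rank-sum test, -0.10 without scaling, and -0.03, -0.01, -0.15, -0.18 and -0.16 in the other tables (-0.06 to 0.10 with 1 mouse left out). Ppara (0.04) became -0.13, -0.09 and, in 4 tables, -0.01 to -0.03 (-0.05 to 0.14). Ppard (0.09) became -0.10, -0.05 and, on Ion Torrent, -0.09, -0.16 and -0.13 (-0.04 to 0.17). Rxra (0.11) became -0.08, -0.03 and, on Ion Torrent, -0.12, -0.12 and -0.11. Nr2c2 (0.01) became -0.16, -0.11 and, with STAR on Ion Torrent, -0.01 (-0.08 to 0.12). With 1 mouse left out, Nr2f1 (-0.05) ran from -0.69 to 0.20, Esrrg (-0.41) from -0.65 to 0.05 and Ncoa1 (-0.04) from -0.09 to 0.02. The cause of these changes was not tested. Members with few reads (Vdr, the NR4A genes, Nr2f1, Esrrg) are limited by depth.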
